A study of Mus musculus with 10 samples.

Results

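The receptors through which granulocyte colony-stimulating factor (G-CSF), GM-CSF, IL-3, IL-6 and the interferons act on blood progenitors are encoded here by 10 genes: Csf3r, Csf2ra, Csf2rb, Csf2rb2, Il3ra, Il6ra, Il6st, Ifngr1, Ifnar1 and Ifnar2. They were chosen as named receptors from the 38086 gene IDs counted in both tables of the series. The rule applies no measured value, but the choice was made with earlier results of these data known. All 10 passed the filter on low counts in each comparison. RNA came from C57BL/6 mouse bone marrow of animals aged 12 months, sorted into GMP (granulocyte-macrophage progenitors: no lineage markers or Sca1, but cKit, CD34 and Fc gamma receptor) and LSK (no lineage markers, with Sca1 and cKit, a gate that holds the stem cells and multipotent progenitors). The groups were 3 GMP KO, 2 GMP CTRL, 3 LSK KO and 2 LSK CTRL libraries, named here by genotype and title number. KO animals were Dnmt3af/f Mx1-Cre+ and CTRL animals Dnmt3af/f Mx1-Cre-; Dnmt3a is a de novo DNA methyltransferase. All carried the floxed alleles, and the labels give every sample 5 injections of poly(I:C), a double-stranded RNA mimic that induces the Mx1 promoter through interferon. Presence of Cre and deletion of Dnmt3a go together, and Mx1-Cre is also active outside blood cells. Apart from the title numbers nothing in the labels says that the libraries are separate animals. The p-values thus cover only the spread among them, which may be technical. In LSK each genotype held male and female libraries by counts, so those did not all come from a single animal.

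Cytokine receptors of this kind have no kinase of their own and signal through bound JAK kinases and STAT factors. Csf3r pairs with itself on binding G-CSF, which drives neutrophil production. GM-CSF and IL-3 each use a private alpha subunit, Csf2ra or Il3ra, with the common beta subunit Csf2rb, and mice have in addition Csf2rb2, a beta subunit that serves IL-3 alone. Il6ra binds IL-6, and Il6st (gp130) is the signalling subunit it shares with the receptors of related cytokines. Ifngr1 is the ligand-binding chain of the receptor for interferon gamma, and Ifnar1 and Ifnar2 form the receptor for type I interferons, the cytokines that poly(I:C) elicits.

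Gene counts summed to 93850256 to 122658636 per GMP library and to 29533371 to 30437981 per LSK library. Dnmt3a itself was at 20.5 to 65.9 CPM (read counts scaled to 1 common library size over all 10 libraries) in GMP KO against 115 to 143 in GMP CTRL, and at 51.2 to 57.1 in LSK KO against 145 to 151 in LSK CTRL, so every library fitted its genotype label. The edgeR adjusted p of this difference was 1.06e-04 in LSK and 0.30 in GMP, where KO-352 lay far below the other KO libraries. The description of KO-352 points to the LSK data, in conflict with its title; its 9 GMP markers summed to 22597 CPM, against 3359 to 4096 CPM in LSK libraries. The 10 LSK markers summed to 301 to 381 CPM in GMP libraries, higher in each KO than in either CTRL library, and to 1459 to 1777 CPM in LSK libraries. Kit, which is on both marker lists, made up most of the LSK marker sum in GMP libraries. By Xist and Y-linked counts the GMP libraries were all male, and in LSK only KO-1327 and CTRL-1326 were male.

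In GMP, none of the 10 receptor genes passed the test between KO and CTRL, and the libraries of 3 of them did not overlap between genotypes. Ifngr1 and Csf2rb lay higher in every KO library, by 0.44 ± 0.10 and 0.39 ± 0.13 on the log2 scale (fitted fold change ± SE), and Il3ra lay lower in every KO library, with a fold change of -0.97 ± 0.29. Csf2rb2 had a fitted difference of 1.20 ± 0.63 but spread widely among the KO libraries; it was 0.60 without KO-178, 0.66 without CTRL-346 and 2.06 without CTRL-350. The remaining 6 genes differed by at most 0.25 on the log2 scale, in either direction.

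**Figure D1:**
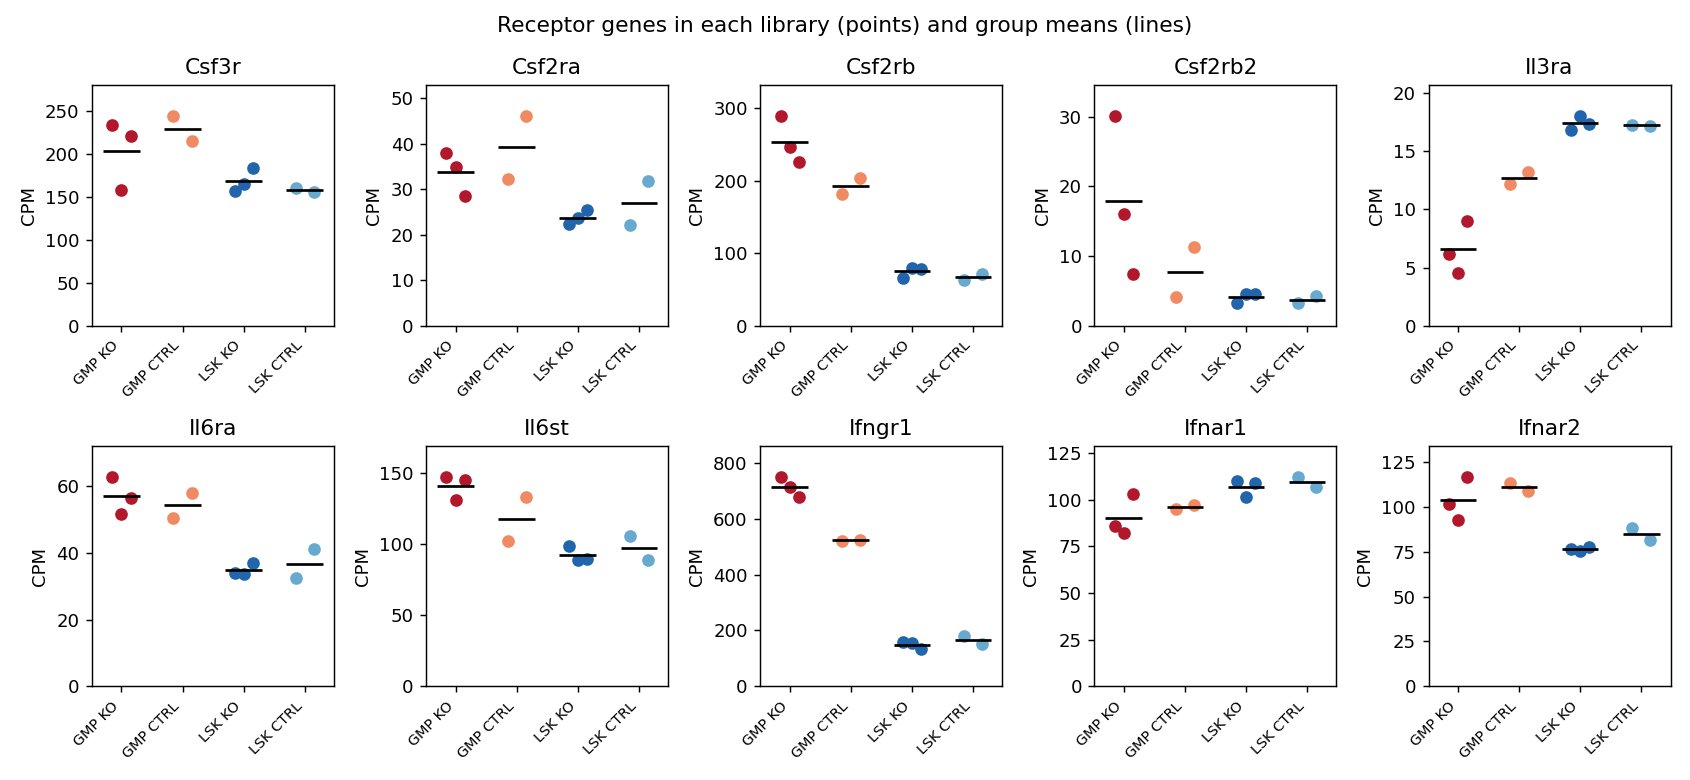
CPM of each receptor gene in every library, with 1 panel per gene and its own vertical axis; points are libraries and lines group means, in the order GMP KO, GMP CTRL, LSK KO, LSK CTRL. Il3ra lies at 4.51 to 8.97 CPM in GMP KO, below 12.2 and 13.2 CPM in GMP CTRL, whereas the LSK genotypes lie at 16.9 to 18 CPM.

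Ifngr1 (chr10:19591949-19610229, coordinates on GRCm38) was measured at 749, 712 and 679 CPM in GMP KO-178, KO-179 and KO-352, against 519 and 525 CPM in GMP CTRL-346 and CTRL-350. The gap between genotypes was wider than the range within either, and the edgeR adjusted p was 0.26 (unadjusted p = 0.0039). In LSK KO it was at 157 CPM in KO-1327, 135 CPM in KO-1334 and 154 CPM in KO-1333, and in LSK CTRL at 180 CPM in CTRL-1326 and 153 CPM in CTRL-1330. The LSK genotypes overlapped, with a fold change of -0.15 ± 0.09 on the log2 scale.

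Csf2rb (chr15:78325752-78353847) was at 289, 247 and 226 CPM in the GMP KO libraries, in the same order, against 182 and 204 CPM in GMP CTRL. The lowest KO library lay above both CTRL libraries (edgeR adjusted p = 0.33). In LSK KO it was at 66.3, 79.6 and 78.4 CPM, against 63.5 and 70.7 CPM in LSK CTRL, with KO-1327 inside the range of the CTRL libraries.

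Csf2rb2, its neighbour at chr15:78282507-78305721, was at 30.1, 16.0 and 7.40 CPM in the GMP KO libraries, against 4.14 and 11.3 CPM in GMP CTRL. KO-352 lay between the CTRL libraries, and the edgeR adjusted p was 0.43. All 5 LSK libraries had 3.26 to 4.54 CPM. The coding sequences of both genes are near copies: 2503 of 2628 aligned positions are identical (95.2%), with an unbroken identical stretch of 242 bases, and 26.0% of the 50-base words of Csf2rb occur also in Csf2rb2. Reads that matched both places may not have been counted for either gene, so their separate levels are uncertain. The first 120 coding bases (GENCODE M21, GRCm38, 5′ to 3′) are shown because they make the likeness visible; capitals mark the 4 positions that differ.
Csf2rb: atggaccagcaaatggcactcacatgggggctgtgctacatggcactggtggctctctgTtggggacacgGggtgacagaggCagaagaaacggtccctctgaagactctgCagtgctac
Csf2rb2: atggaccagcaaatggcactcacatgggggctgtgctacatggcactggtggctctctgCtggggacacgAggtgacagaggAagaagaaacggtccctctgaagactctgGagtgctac
Summed into 1 count, the beta subunit genes differed by 0.43 on the log2 scale in GMP KO over CTRL, with an edgeR adjusted p of 0.34.

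Il3ra (chr14:14346275-14356011) was at 6.20, 4.51 and 8.97 CPM in the GMP KO libraries, against 12.2 and 13.2 CPM in GMP CTRL (edgeR adjusted p = 0.31). Every GMP KO library lay below both CTRL libraries. In LSK the values were nearly level, at 16.9, 18 and 17.4 CPM in KO and 17.3 and 17.2 CPM in CTRL. An antisense gene is annotated over Il3ra and another over Il6ra, and it is not stated whether counting used the strand, so sense and antisense reads cannot be told apart.

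The alpha subunit for GM-CSF, Csf2ra (chr19:61223957-61228429), was at 38.0, 34.8 and 28.6 CPM in GMP KO and 32.4 and 46.1 CPM in GMP CTRL, with overlapping genotypes. In LSK it was at 22.3, 23.6 and 25.5 CPM in KO and 22.1 and 31.8 CPM in CTRL, where CTRL-1330 alone stood higher. Csf3r (chr4:126024550-126044440) was at 234, 158 and 220 CPM in GMP KO and 244 and 215 CPM in GMP CTRL, KO-179 being the low library. Its LSK values were 157, 165 and 183 CPM in KO and 160 and 156 CPM in CTRL.

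The IL-6 receptor chains overlapped between genotypes in both populations. Il6ra (chr3:89864059-89913196) was at 62.7, 51.6 and 56.6 CPM in GMP KO and 50.5 and 58.0 CPM in GMP CTRL, and at 34.0, 33.7 and 37.1 CPM in LSK KO and 32.3 and 41.1 CPM in LSK CTRL. Il6st (chr13:112464070-112510086) was at 147, 131 and 145 CPM in GMP KO and 102 and 133 CPM in GMP CTRL, where only CTRL-346 lay below all KO libraries. In LSK it was at 98.7, 89.0 and 89.3 CPM in KO and 106 and 88.9 CPM in CTRL.

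The chains of the type I interferon receptor, neighbours on chromosome 16 (Ifnar1 at chr16:91485238-91507441, Ifnar2 at chr16:91372783-91405589), overlapped between GMP genotypes. Ifnar1 was at 86.0, 82.1 and 103 CPM in GMP KO and 94.8 and 97.1 CPM in GMP CTRL, and Ifnar2 at 102, 92.8 and 117 CPM in GMP KO and 113 and 109 CPM in GMP CTRL. In LSK, Ifnar1 was at 110, 101 and 109 CPM in KO and 112 and 107 CPM in CTRL. Ifnar2 was at 76.6, 75.2 and 77.5 CPM in LSK KO, below 88.4 and 81.4 CPM in LSK CTRL, a log2 fold change of -0.14 ± 0.07 that did not pass the test.

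Counted over the 10 genes, edgeR called 0 in GMP, where it called 0.0347% of 17290 genes, and 0 in LSK, where it called 0.0232% of 17238 genes. At an unadjusted p under 0.05 there were 3 in GMP (Ifngr1, Il3ra and Csf2rb), against 13.8% of all genes, and 0 in LSK, against 2.83%. DESeq2 called 2 in GMP, Ifngr1 (0.43, DESeq2 adjusted p = 0.0031) and Il3ra (-0.98, DESeq2 adjusted p = 0.038), against 4.07% of all genes, and 0 in LSK; limma-voom called 0 in both. Groups that did not overlap were found for 3 genes in GMP, against 32.3% of all genes, 2 of them higher in KO (background 17.7%) and 1 lower (14.6%). In LSK they were found for Ifnar2 alone, lower in KO, against 14.0% of all genes and 7.67% lower, so the counts were near the background. The median log2 fold change of the 10 genes was -0.02 in GMP and -0.04 in LSK, beside 0.01 and 0.00 over all genes tested. All 10 edgeR adjusted p-values in LSK were 0.9998.

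Other measures moved with genotype in GMP beside these genes. The 9 monocyte markers summed to 2641 to 3125 CPM in GMP KO and to 1772 to 2228 CPM in GMP CTRL, without overlap, as for Ifngr1 and Csf2rb. Most of that sum was F13a1, at 1840 ± 321 CPM in KO and 1108 ± 138 CPM in CTRL; of the 9 markers 5 had a positive and 4 a negative fold change, with a median of 0.04 on the log2 scale. The 12 mast cell, basophil and eosinophil markers summed to 1069 to 1379 CPM in KO and to 1739 to 4725 CPM in CTRL, as for Il3ra. All 12 had a negative fold change. Of these edgeR called Hdc alone (edgeR adjusted p = 0.041), against 0.0347% of all genes. Its level was 227 ± 2.87 CPM in KO and 467 ± 7.28 CPM in CTRL. The summed level of the 9 GMP markers overlapped, at 16692 to 22597 CPM in KO and 20729 to 26764 CPM in CTRL. Of these 9, 7 had a negative fold change, with a median of -0.26. The 10 T and NK cell markers summed to 283 to 364 CPM in KO and 423 to 508 CPM in CTRL, nearly all of it Nkg7 (326 ± 45.5 CPM in KO, 465 ± 61.3 CPM in CTRL), whereas 7 of the 9 tested had a positive fold change, with a median of 1.17. The 10 LSK markers summed to 312 to 381 CPM in KO and to 301 CPM in each CTRL library, with 8 of 10 fold changes positive and a median of 0.30. Most of that sum was Kit, which is also a GMP marker, at 269 ± 25.3 CPM in KO and 232 ± 2.56 CPM in CTRL. The summed level of the 12 mature neutrophil markers overlapped, at 714 to 5086 CPM in KO and 1081 to 2632 CPM in CTRL. All 12 had a positive fold change, with a median of 0.93 on the log2 scale, and the genotypes overlapped for 11 of them. No marker of the monocyte, neutrophil or mast cell lists was at 0 in a GMP library, while up to 4 T and NK cell markers were at 0 in a KO library and up to 5 in a CTRL library. The percent of reads lying outside genes was 10.3 in KO-352, 15.5 in KO-178 and 16.1 in KO-179, and 8.5 in CTRL-346 and 14.2 in CTRL-350. With that share as a term in the fit the log2 fold changes became 0.41 for Ifngr1 (edgeR adjusted p = 0.064), 0.30 for Csf2rb, -0.83 for Il3ra and 0.51 for Csf2rb2, the last less than its value without the term by over 1.5 times. The part of the marker lists in these differences was not tested. In bulk samples, fewer cells of a type and less RNA per cell cannot be told apart.

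**Figure D2:**
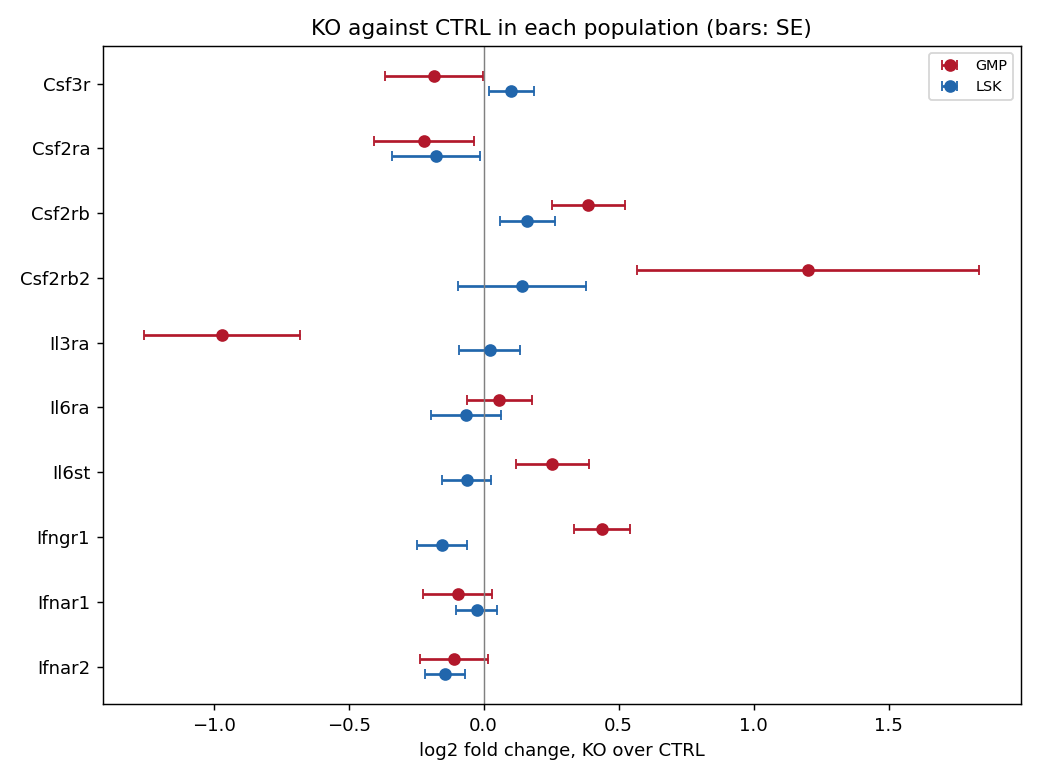
Fitted log2 fold change, KO over CTRL, of each receptor gene in GMP (red) and in LSK (blue); bars are the SE. In GMP Ifngr1 lies at 0.44 and Il3ra at -0.97, while all 10 LSK values lie between -0.18 and 0.16.

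Whether the KO effect differed between populations was tested as an interaction over all 10 libraries. The KO effect on Ifngr1 was larger in GMP than in LSK by 0.61 ± 0.14 on the log2 scale, with an edgeR adjusted p of 0.29, and that on Il3ra differed by -0.97 ± 0.33, with an edgeR adjusted p of 0.42. The difference for Csf2rb2 was 1.07 ± 0.76 (edgeR adjusted p = 0.64), and it ran from 0.48 without GMP KO-178 to 1.92 without GMP CTRL-350. edgeR called 0 of the 10 genes, against 0.0265% of 18836, and 2 had an unadjusted p under 0.05, against 10.1%. DESeq2 called Ifngr1 alone (0.59, DESeq2 adjusted p = 0.031), against 1.17% of all genes, and limma-voom called 0. Without GMP KO-352 edgeR called both Ifngr1 (0.63, edgeR adjusted p = 0.044) and Il3ra (-1.28, edgeR adjusted p = 0.027). Calls over all genes rose too in that fit, to 513 of 16760 genes, against 5 of 18836 with all libraries.

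More of the receptors were called between populations than between genotypes. In both genotypes Ifngr1 and Csf2rb stood higher in GMP than in LSK by the widest called margins apart from Csf2rb2 in KO, and Il3ra stood lower in GMP KO than in LSK KO. These comparisons set GMP first, as GMP over LSK; population coincides with count table, annotation and sequencing depth, which cannot be told apart from it.

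In CTRL animals 6 of the 10 genes were called higher in GMP and 0 lower, against 27.3% and 28.2% of all 18836 genes. Ifngr1 averaged 522 ± 3.91 CPM in GMP CTRL and 167 ± 18.6 CPM in LSK CTRL (SD, n = 2 each), a log2 fold change of 1.65 ± 0.11 (edgeR adjusted p = 1.84e-06). Csf2rb averaged 193 ± 15.6 CPM in GMP CTRL and 67.1 ± 5.13 CPM in LSK CTRL, a log2 fold change of 1.52 ± 0.14 (edgeR adjusted p = 1.30e-05). The receptor genes Il6ra, Csf3r, Csf2ra and Ifnar2 were called with smaller log2 fold changes of 0.56, 0.54, 0.54 and 0.38. Csf2rb2 (1.05 ± 0.59), Il6st (0.28 ± 0.14), Ifnar1 (-0.19 ± 0.12) and Il3ra (-0.44 ± 0.25) did not pass; the value of Csf2rb2 was 0.18 without GMP CTRL-350 and 1.57 without GMP CTRL-346. The libraries of both populations did not overlap for 8 genes, against 78.5% of all genes.

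In KO animals 7 were called higher in GMP and 1 lower, against 30.1% and 30.7% of all genes. Ifngr1 averaged 713 ± 35.1 CPM in GMP KO and 149 ± 12.1 CPM in LSK KO (SD, n = 3 each), a log2 fold change of 2.26 ± 0.09 (edgeR adjusted p = 4.05e-08). Csf2rb averaged 254 ± 31.9 CPM in GMP KO and 74.7 ± 7.38 CPM in LSK KO, at 1.76 ± 0.12 (edgeR adjusted p = 7.23e-07), and Csf2rb2 17.8 ± 11.4 CPM in GMP KO and 4.11 ± 0.741 CPM in LSK KO, at 2.12 ± 0.49 (edgeR adjusted p = 0.0036). Il3ra averaged 6.56 ± 2.25 CPM in GMP KO and 17.4 ± 0.569 CPM in LSK KO, at -1.41 ± 0.21 (edgeR adjusted p = 2.05e-04). The receptor genes Il6ra, Il6st, Csf2ra and Ifnar2 were called higher by 0.70, 0.61, 0.51 and 0.44 on the log2 scale. Csf3r (0.28 ± 0.14) and Ifnar1 (-0.24 ± 0.10) did not pass. Populations did not overlap for 8 genes, against 68.4% of all genes.

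Scaling and single libraries set which of the smaller differences passed. Without TMM scaling the median log2 fold change of all genes was -0.53 in CTRL and -0.46 in KO, against -0.12 and -0.08 with it. The direction then turned for Il6st (-0.13) and Ifnar2 (-0.03) in CTRL and for Csf3r (-0.11) in KO; the calls of Csf3r, Csf2ra and Il6ra in CTRL and of Csf2ra, Il6ra, Il6st and Ifnar2 in KO were lost, and Ifnar1 (-0.60 in CTRL, -0.62 in KO) and Il3ra in CTRL (-0.85) were called lower. Either scaling applies 1 factor per library to all genes, so closeness of values relative to the median gene was set in advance and tests nothing. Relative to the median gene, the log2 fold changes under either scaling lay within 0.017 of each other in CTRL and within 0.0080 in KO. On that footing Ifngr1 stood 1.77 above the median gene in CTRL and 2.34 in KO, Csf2rb 1.64 and 1.85, Csf3r 0.66 and 0.36, Ifnar1 -0.07 and -0.16, and Il3ra -0.32 and -1.33. The calls of Ifngr1 and Csf2rb in both genotypes, and of Csf2rb2 and Il3ra in KO, held in every alternative that gave a value for them. With 1 library left out in turn, Csf3r in CTRL lost its call without GMP CTRL-346, LSK CTRL-1326 or LSK CTRL-1330, Il6ra without LSK CTRL-1326, and Ifnar2 without GMP CTRL-346 or LSK CTRL-1330. Csf2ra lost its CTRL call without any 1 of 7 libraries, namely GMP KO-178, GMP KO-179, GMP CTRL-350, LSK KO-1327, LSK KO-1333, LSK KO-1334 and LSK CTRL-1326, and in KO without GMP KO-178 or KO-179 or LSK KO-1327 or KO-1333. In turn Il3ra in CTRL (without GMP KO-352), Il6st in CTRL (without GMP CTRL-346), Csf3r in KO (without GMP KO-179) and Ifnar1 in KO (without GMP KO-352) were called.

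**Figure D3:**
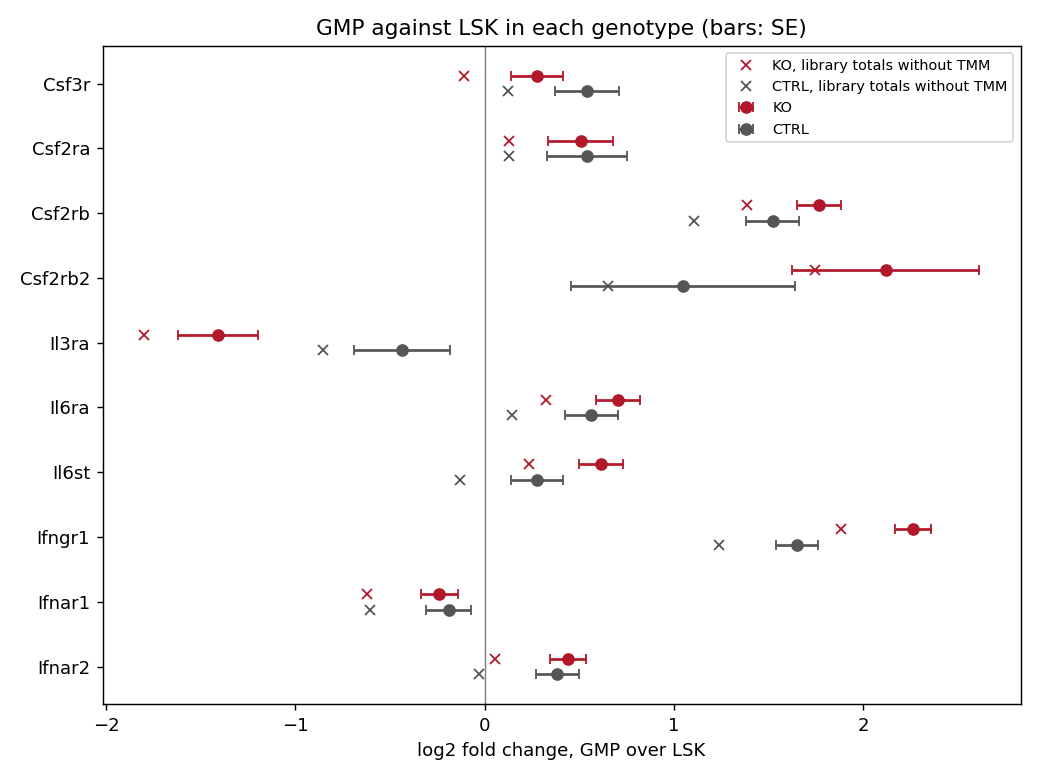
Fitted log2 fold change, GMP over LSK, of each receptor gene in KO (red) and in CTRL (grey) libraries; bars are the SE, and crosses give the value without TMM scaling. Ifngr1 lies at 2.26 in KO and 1.65 in CTRL, and Il3ra, at -1.41 in KO and -0.44 in CTRL, is on the other side of 0.

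Levels of different genes were compared per length, as CPM per kb of exons (RPKM). In GMP KO the order was Ifngr1 (250 RPKM), Csf3r (56.5), Csf2rb (34.9), Ifnar2 (31.1), Ifnar1 (15.2), Il6st (12.7), Csf2ra (11.8), Il6ra (6.59), Csf2rb2 (3.76) and Il3ra (2.21), where the libraries of Csf2rb and Ifnar2, of Il6st and Csf2ra, and of neighbours among the last 3 overlapped. In GMP CTRL the order was Ifngr1 (183), Csf3r (63.6), Ifnar2 (33.3), Csf2rb (26.5), Ifnar1 (16.2), Csf2ra (13.7), Il6st (10.6), Il6ra (6.28), Il3ra (4.29) and Csf2rb2 (1.63), with overlap among Ifnar1, Csf2ra and Il6st as neighbours. In LSK KO it was Ifngr1 (52.2), Csf3r (46.7), Ifnar2 (23.0), Ifnar1 (18), Csf2rb (10.3), Il6st (8.32), Csf2ra (8.28), Il3ra (5.87), Il6ra (4.04) and Csf2rb2 (0.867), with overlap between Ifngr1 and Csf3r and between Il6st and Csf2ra. In LSK CTRL it was Ifngr1 (58.5), Csf3r (43.8), Ifnar2 (25.5), Ifnar1 (18.4), Csf2ra (9.39), Csf2rb (9.22), Il6st (8.76), Il3ra (5.81), Il6ra (4.25) and Csf2rb2 (0.789), with overlap of Csf2rb with Csf2ra and with Il6st. Il3ra and Csf2rb2 thus stood at the low end in GMP, and in LSK Csf2rb2 alone was below 1 RPKM.

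**Figure D4:**
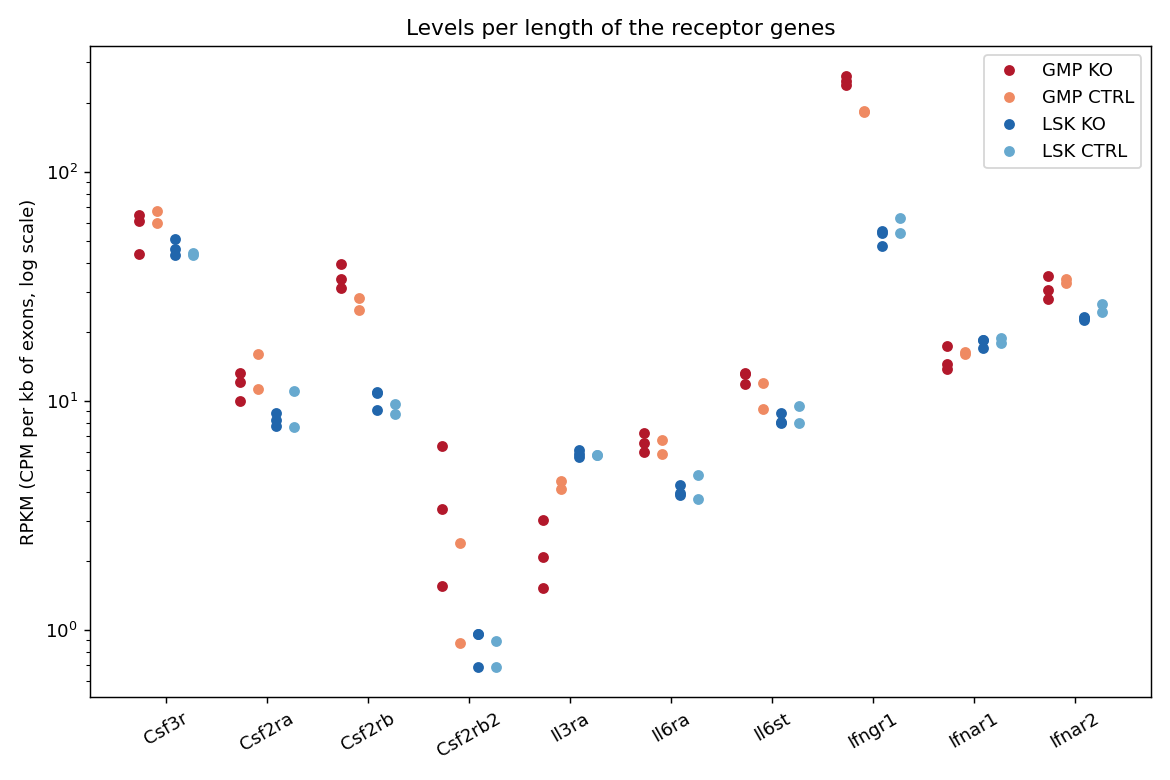
RPKM of each receptor gene in every library on a log axis; points are libraries, coloured by group in the order GMP KO, GMP CTRL, LSK KO, LSK CTRL. Ifngr1 tops each group, at a mean of 250 RPKM in GMP KO and 58.5 RPKM in LSK CTRL.

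Balance between chains of a receptor was read as the ratio of their levels per kb within a library. Csf2rb stood at 3.0, 2.80 and 3.12 times Csf2ra in GMP KO, against 2.21 and 1.74 times in GMP CTRL, and at 1.17, 1.33 and 1.22 times in LSK KO, against 1.13 and 0.877 times in LSK CTRL. Both populations thus had every KO library above both CTRL libraries in this ratio, in LSK by a narrow margin (1.17 against 1.13). Several of the ratios below also did not overlap between genotypes in a population. Of single genes, 32.3% in GMP and 14.0% in LSK did not overlap, and no such share was computed for ratios of other gene pairs. Csf2ra stood at 6.33, 7.98 and 3.30 times Il3ra in GMP KO, against 2.74 and 3.60 times in GMP CTRL, and at 1.37, 1.35 and 1.51 times in LSK KO, against 1.32 and 1.91 times in LSK CTRL. KO-352 lay between the GMP CTRL libraries here. Csf2rb stood at 6.26 to 19.9 times Csf2rb2 in GMP KO, against 28.5 and 11.7 times in GMP CTRL, with overlap, and at 11.3 to 13.3 times in LSK KO, against 12.7 and 10.9 times in LSK CTRL. Ifngr1 stood at 22.4, 22.4 and 16.8 times Ifngr2, the second chain of its receptor, in GMP KO, against 13.4 and 12.7 times in GMP CTRL, and at 5.35 to 6.46 times in LSK KO, against 6.60 and 6.62 times in LSK CTRL. Ifnar1 stood at 0.474 to 0.497 times Ifnar2 in GMP KO, against 0.470 and 0.501 times in GMP CTRL, and at 0.756 to 0.805 times in LSK KO, against 0.711 and 0.734 times in LSK CTRL. Il6st stood at 1.83 to 2.0 times Il6ra in GMP KO, against 1.58 and 1.78 times in GMP CTRL, and the LSK genotypes overlapped. These ratios are descriptions, and no test was run on them.

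**Figure D5:**
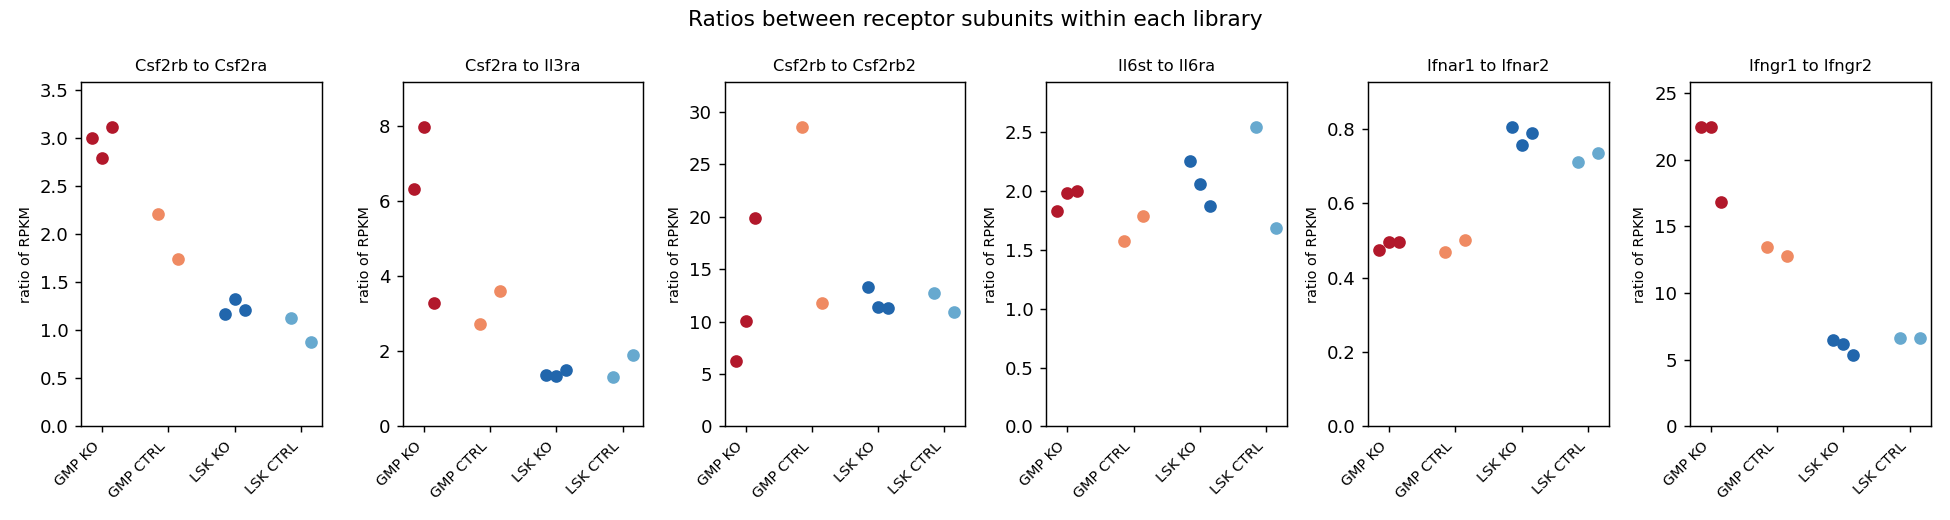
Ratio of levels per kb between paired receptor chains in every library, 1 panel per pair; points are libraries, in the order GMP KO, GMP CTRL, LSK KO, LSK CTRL. Csf2rb over Csf2ra is 2.80 to 3.12 in GMP KO, above 1.74 and 2.21 in GMP CTRL.

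Because Dnmt3a methylates cytosine before guanine (CpG), the CpG content upstream of the receptor genes was counted in the 250 bases before the RefSeq start (GRCm38.p6), which the table gave for 9 of the 10 genes, all but Csf2rb. Il3ra had 27 CpG, Il6st 26, Ifnar1 19, Il6ra 18, Csf2ra 17, Ifngr1 and Ifnar2 11 each, Csf3r 6 and Csf2rb2 3. Most of the Il3ra window (chr14:14346245-14346494) lies inside the gene bounds given above, as do part of the Csf3r window and the edge of that of Csf2ra. Bases shortly after the RefSeq start were found in a GENCODE transcript for each of these genes except Il3ra and Ifnar1. The median of all 32851 promoters was 6, and 8.6% of them had at least as many as Il3ra and 71.0% at least as many as Csf2rb2. The windows of Csf2rb2 (chr15:78305722-78305971, minus strand) and Ifngr1 (chr10:19591699-19591948, plus strand), the members with the largest fold change and the smallest p among those with a positive KO difference in GMP, are printed 5′ to 3′ with CpG in capitals; methylation was not measured in these data.
Csf2rb2: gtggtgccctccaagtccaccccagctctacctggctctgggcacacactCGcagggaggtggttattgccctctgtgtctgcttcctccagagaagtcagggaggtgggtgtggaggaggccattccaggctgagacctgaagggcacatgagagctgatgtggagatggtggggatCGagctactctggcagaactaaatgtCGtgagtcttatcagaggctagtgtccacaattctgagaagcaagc
Ifngr1: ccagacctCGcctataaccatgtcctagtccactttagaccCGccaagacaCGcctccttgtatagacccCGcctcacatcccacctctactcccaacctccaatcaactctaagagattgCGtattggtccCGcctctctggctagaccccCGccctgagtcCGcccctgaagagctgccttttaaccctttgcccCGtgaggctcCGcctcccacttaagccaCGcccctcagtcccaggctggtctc
The letters TTCNNNGAA, the spacing that STAT factors are known to bind, read the same on both strands and occurred in the windows of Csf2rb2 and Ifnar2 and in 7.0% of all promoters. The letters GAGGAAGT, a form of the PU.1 site, were searched on both strands and occurred in 0 of the 9 windows, against 2.4% of all promoters.

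The pathway around these receptors was followed in 6 lists that hold 125 other genes. In GMP 114 of them were tested, and edgeR called 0 between KO and CTRL, with 25 at an unadjusted p under 0.05 (13.8% of all genes); DESeq2 called 9 higher and 4 lower (4.07% of all genes), and limma-voom 0. Of 32 other cytokine receptors tested, Flt3, a receptor tyrosine kinase of early and lymphoid-primed progenitors, averaged 121 ± 50.9 CPM in GMP KO and 19.5 ± 5.62 CPM in GMP CTRL, a log2 fold change of 2.62 ± 0.38 (edgeR adjusted p = 0.19). The receptor for leukaemia inhibitory factor, Lifr, which signals with Il6st, averaged 7.85 ± 3.15 CPM in GMP KO and 0.679 ± 0.443 CPM in GMP CTRL (edgeR adjusted p = 0.24). Of 18 STAT3 and STAT5 targets tested, the kinase gene Pim1 averaged 124 ± 43.9 CPM in KO and 40.2 ± 9.32 CPM in CTRL (edgeR adjusted p = 0.25) and Myc, a growth regulator, 220 ± 21.8 CPM in KO and 138 ± 9.83 CPM in CTRL (edgeR adjusted p = 0.26). The cyclin gene Ccnd3 lay the other way, at 62.5 ± 8.66 CPM in KO and 89.8 ± 5.32 CPM in CTRL (edgeR adjusted p = 0.28). Among 22 negative regulators, 13 of them with a negative fold change, Socs3, the feedback inhibitor of Csf3r and Il6st, averaged 4.14 ± 2.42 CPM in KO and 1.12 ± 0.561 CPM in CTRL (edgeR adjusted p = 0.31), and Socs5, of the same family, 11.5 ± 2.90 CPM in KO and 17.4 ± 1.68 CPM in CTRL (edgeR adjusted p = 0.34). Of 20 JAK-STAT and adaptor genes 14 had a negative fold change, with a median of -0.13 on the log2 scale. Tyk2, a JAK kinase, averaged 81.7 ± 13.5 CPM in GMP KO and 109 ± 1.86 CPM in GMP CTRL (edgeR adjusted p = 0.33), and the adaptor Gab2 77.7 ± 18.6 CPM in KO and 49.3 ± 3.08 CPM in CTRL (edgeR adjusted p = 0.32). The 21 interferon targets had a median of -0.10, and Ifitm3, a membrane protein that blocks virus entry, averaged 64.4 ± 20.4 CPM in KO and 27.7 ± 6.05 CPM in CTRL (edgeR adjusted p = 0.27). Of 14 ligand genes 6 could be tested and none passed.

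In LSK edgeR called 0 of 114 tested pathway genes between KO and CTRL, DESeq2 0 and limma-voom 0, and 6 had an unadjusted p under 0.05 (2.83% of all genes). Fold changes of the 21 interferon targets were negative for 20, with a median of -0.24 on the log2 scale beside 0.00 over all genes. The genotypes overlapped for 17 of them and 4 lay lower in every KO library, against 7.67% of all genes. For some targets the CTRL libraries lay far apart. Ifit1 was at 6.94 and 11.8 CPM in LSK CTRL, against 5.88 to 6.00 CPM in LSK KO. Ifi44 was at 15.7 and 23.9 CPM in LSK CTRL, against 14.0 to 16.2 CPM in LSK KO. Marker lists also lay to 1 side in LSK: fold changes were negative for all 5 dendritic cell markers tested (summed level 132 to 201 CPM in KO, 222 to 320 CPM in CTRL), for 8 of 9 monocyte markers (240 to 321 CPM in KO, 308 to 422 CPM in CTRL) and for all 11 mast cell, basophil and eosinophil markers tested (204 to 267 CPM in KO, 258 to 279 CPM in CTRL). They were positive for all 8 B cell markers (62.2 to 111 CPM in KO, 54.9 to 74.6 CPM in CTRL). The part of these marker lists in the fold changes of the interferon targets was not tested. Ifi47, an interferon-induced GTPase, averaged 98.7 ± 8.41 CPM in LSK KO and 117 ± 2.71 CPM in LSK CTRL, and Oasl2 27.2 ± 2.11 CPM in KO and 33.5 ± 1.13 CPM in CTRL. Cxcr2, a chemokine receptor of neutrophils, averaged 5.97 ± 0.889 CPM in LSK KO and 8.84 ± 0.411 CPM in LSK CTRL. Of 19 STAT3 and STAT5 targets 13 had a positive fold change, among them Cebpb, at 4.84 ± 0.778 CPM in KO and 3.57 ± 0.350 CPM in CTRL, and Socs3, at 18.7 ± 8.58 CPM in KO and 11.5 ± 0.622 CPM in CTRL. None of these passed the test (edgeR adjusted p = 0.9998 for each).

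Between populations the pathway genes split in both directions. In CTRL edgeR called 80 of 117 tested pathway genes and in KO 79, against 55.4% and 60.9% of all genes. Of 34 other receptors 10 were higher and 17 lower in GMP CTRL than in LSK CTRL: Csf1r, the receptor for M-CSF, was higher by 1.94 ± 0.19 on the log2 scale, and Il7r, the IL-7 receptor, differed by -5.67 ± 1.28. Of 20 JAK-STAT and adaptor genes 10 were higher, with the adaptor Shc1 at 0.80 ± 0.11, and 6 lower, with Jak3 at -2.11 ± 0.23 and Stat5b at -0.85 ± 0.11. Of 22 negative regulators 3 were higher and 7 lower, among them the feedback inhibitors Socs2 (-5.15 ± 0.68), Cish (-3.63 ± 0.31) and Socs3 (-3.37 ± 0.63). Of 19 STAT3 and STAT5 targets 3 were higher, with Cebpb, a myeloid transcription factor, at 2.20 ± 0.23, and 10 lower. Of 21 interferon targets 3 were higher and 12 lower, with Ifi44 at -6.20 ± 0.51 and Oasl2 at -3.13 ± 0.36. Of 6 ligand genes tested 2 were higher and 1 lower. In KO these lists gave 10 higher and 14 lower other receptors, 8 and 6 JAK-STAT genes, 3 and 11 negative regulators, 4 and 9 STAT targets, 1 and 1 ligands, and 4 and 12 interferon targets.

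The genes whose levels followed Csf3r and Csf2rb most closely over the 10 libraries, once the mean of each population was subtracted, were found among 9285 genes. For Csf3r they included Hax1 (Pearson r = 0.96) and Bcl7a (0.93), and for Csf2rb they were Idua (0.95), Relt (0.95) and Btbd19 (0.94). The libraries of a population share depth and count table, and these values are a description without a test.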

How the data were processed

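Total RNA of sorted GMP and LSK was sequenced from stranded libraries depleted of ribosomal RNA, per the labels' protocols, so unspliced RNA is included. The authors deposited raw counts of reads per Ensembl gene in 1 table per population, for which the submitters' processing notes list mm10 (GRCm38), STAR, DESeq2 1.4.5, DESeq 1.18.0 and HTSeq 0.5.3p3 without roles. The sources used here give neither annotation release nor strand setting. The tables hold 38924 (GMP) and 45513 (LSK) gene IDs, with GENCODE M21 symbols for 37607 and 44671. The last lines of the GMP table name no gene and entered no library size or test; they hold 8.5% to 16.1% of listed reads as outside genes, 26.3% to 29.0% as not uniquely aligned and 1.1% to 1.3% as ambiguous. The deposited normalized tables were not used.

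The test was that of edgeR 4.0.16 in R 4.3.3: filterByExpr at a minimum count of 10, TMM, the two-sided quasi-likelihood test and Benjamini-Hochberg adjustment over all genes tested, called at 0.05. KO was set against CTRL within each population; the difference of KO effects and GMP against LSK came from 1 fit of all 10 libraries on shared gene IDs. SE is the log2 fold change over the square root of F. CPM uses the TMM library sizes of that fit, and RPKM divides it by kb of merged exons. DESeq2 1.42.0, limma-voom (limma 3.58.1), library totals, DESeq2 size factors, no filter, extra terms and left-out libraries were alternatives. No pair of libraries agreed within sampling noise. The edgeR steps were tested on simulated counts.

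The members and lists were chosen with earlier results of these data known. Genes named are Dnmt3a, all members, and, from each pathway list, some of the 3 with the smallest p per KO comparison and of the 3 with the largest called fold change per direction between populations, and genes whose levels correlate most with Csf3r or Csf2rb. Ifngr2 and the marker genes F13a1, Nkg7, Kit and Hdc were named after their values were seen. Promoters are from RefSeq. Some genes that this rule takes are left out of the text.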

Additional observations from a re-analysis of the deposited data

How the results depend on the processing

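No paired analysis was possible because no title number occurs in more than 1 group. Of the member values recomputed with 1 library left out, 360 kept their direction and side of the threshold and 17 turned direction; under the other alternatives 316 kept both and 4 turned. Without TMM the value turned to 0.0022 for Csf2ra in the difference of KO effects. Between populations it turned to -0.13 for Il6st and -0.032 for Ifnar2 in CTRL and to -0.11 for Csf3r in KO. Then 5 members rather than 8 were called between populations in KO, and 11914 of 18836 genes rather than 11466. DESeq2 called 2 members in GMP and 1 in the difference, against 0 by edgeR.

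Over all genes edgeR called 6 in GMP, 4 in LSK and 5 in the difference. Without a filter these became 50, 27 and 38, with DESeq2 703, 20 and 221. limma-voom gave 0 in GMP and 2 in the difference, the term for reads outside genes 205 in GMP, and the fit of all 4 groups 182 in GMP and 0 in LSK; the cause was not tested. With 1 library left out the counts ran from 1 to 172 in GMP (172 without KO-352), 3 to 11 in LSK (11 without CTRL-1326, 7 without KO-1333) and 1 to 513 in the difference (513 without GMP KO-352). With a KO library left out, members called ran from 0 to 2 in the difference, 5 to 7 between populations in CTRL and 7 to 9 in KO. Calls over all genes moved too. Without GMP KO-352, with 7 members called in CTRL and 9 in KO, they were 10594 and 10662 of 16760 genes. Without GMP KO-178, with 5 and 7 members, they were 9711 and 9909 of 16727. Fewer members were called in CTRL without LSK CTRL-1326, which leaves 1 library in that group. A group left with 1 library was assumed to vary like the others.

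With 1 library left out, log2 fold changes that turned direction ran in GMP from -0.44 to 0.020 for Csf2ra (0.020 without CTRL-350) and from -0.021 to 0.13 for Il6ra. In LSK they ran from -0.43 to 0.13 for Csf2ra, -0.052 to 0.36 for Csf2rb2, -0.25 to 0.14 for Il6ra, -0.16 to 0.042 for Il6st and -0.051 to 0.023 for Ifnar1. In the difference they ran from -0.32 to 0.21 for Csf2ra, -0.042 to 0.31 for Il6ra, -0.18 to 0.0041 for Ifnar1 and -0.057 to 0.12 for Ifnar2. None of these members was called under any of those settings. The member with the fewest reads was Csf2rb2, with 107 to 161 per LSK library; Il3ra had at least 500 in every library.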
